A study of Homo sapiens with 4 samples.

Results

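Semaphorins and ephrins are guidance ligands, and plexins and Eph proteins are their receptors. The genes of these families were chosen by symbol, as the SEMA3 to SEMA7, PLXNA to PLXND, EFNA, EFNB, EPHA and EPHB genes of the count table, which gave 50 genes of 37450 features. They comprised 7 secreted class 3 semaphorins, 13 membrane-bound semaphorins of classes 4 to 7, 9 plexins, 5 ephrin-A ligands, 3 ephrin-B ligands, 8 EphA receptors and 5 EphB receptors. Stranded mRNA sequencing had been run on 143B cells, a human osteosarcoma line, at day 2 after lipid-based transfection of siRNA. The siCBX3 group (2 libraries, labelled as CBX3 knockdown) was set against the siNC group (2 libraries with a non-targeting siRNA, labelled as WT genotype). CBX3 encodes HP1-gamma, a chromatin protein that binds methylated histone H3. Both groups came from the same line and were transfected, and no untransfected cells were analysed here.

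Semaphorins act mostly through plexins, whose cytoplasmic part switches off R-Ras and Rap GTPases and so loosens integrin adhesion and the actin cytoskeleton. The secreted class 3 semaphorins need neuropilins as ligand-binding partners of the plexins. Eph proteins are receptor tyrosine kinases that meet ephrins on a neighbouring cell, with GPI-anchored ephrin-A proteins bound mainly by EphA and transmembrane ephrin-B proteins mainly by EphB receptors. In mouse bone, SEMA3A, SEMA4D and the pair of ephrin-B2 and EphB4 carry signals between osteoclasts and osteoblasts, and EPHA2 is a well-known surface receptor of osteosarcoma cells.

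Total counts were 36509298 and 38717507 in the siCBX3 libraries and 37318382 and 40336907 in the siNC libraries. CBX3 itself was at 11.9 and 12.0 RPKM (read counts divided by exonic length and library size) in siCBX3, against 117 and 114 RPKM in siNC. Its log2 fold change was -3.19 (edgeR: SE 0.08, adjusted p = 2.73e-20), so the libraries matched their labels. Of 8 mesenchymal markers, 7 were detected, with summed levels of 668 and 661 RPKM in siCBX3 and 254 and 264 RPKM in siNC, while ALPL, an osteoblast enzyme, had 4 counts or fewer in every library. SPARC (62806 and 63795 counts in siCBX3, 13473 and 11990 in siNC) and VIM carried the difference in that sum. CD44 was lower in siCBX3 (14204 and 15744 counts) than in siNC (16511 and 16704 counts), and COL1A1, COL1A2, RUNX2 and TWIST1 differed far less. Of 5 neuronal markers, 3 were detected, and their sum was 5.96 and 5.54 RPKM in siCBX3 against 3.44 and 3.14 RPKM in siNC. SNAP25 (472 and 486 counts in siCBX3, 257 and 217 in siNC) and SYP carried that sum, while RBFOX3 was lower in siCBX3 (16 and 31 counts) than in siNC (34 and 48 counts). The neuronal markers SYT1 and STMN2 had 8 counts or fewer in every library. Summed epithelial markers were at 5.39 and 6.03 RPKM in siCBX3 and 7.69 and 7.94 RPKM in siNC, leukocyte markers at 0.868 to 1.4 RPKM, and endothelial markers at 0.195 to 0.285 RPKM over all libraries. The part of these shifts in the results was not tested, and in bulk RNA fewer cells of a type and less RNA per cell cannot be told apart. Nothing in the labels says that the libraries of a group were separate cultures, so the p-values given here refer to the spread among these 4 libraries only, and that spread may be technical.

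The members did not shift in a common direction. SEMA3C, SEMA3A, SEMA5A and PLXNA4 were 4.42 to 13.7-fold higher in siCBX3 than in siNC, PLXNA2, EPHA2 and EPHA4 were 2.26 to 3.9-fold lower, and the most abundant ligand, EFNB1, was 1.44-fold lower. A minimum count filter kept 45 of the 50 members. Of these, 30 (66.7%) passed an adjusted p under 0.05 in edgeR's quasi-likelihood test, against 48.4% of all 20999 genes tested. The called members comprised 13 higher in siCBX3 and 17 lower, while 24.4% of all genes tested were called higher and 24% lower. EPHA3 and EPHA5 passed the filter through 1 group only, with both libraries of the other group under its minimum of 10 counts. Without them, 28 of 43 members were called, 12 of them higher and 16 lower. These 16 still held EPHA6 and SEMA6D, each with a siCBX3 library under that minimum (6 and 8 counts). Their testing rested mainly on the siNC libraries, in which they were higher. Of the 45 tested members, 13 were called with a log2 fold change of 1 or more in size, against 12.8% of all genes tested. Of these 13, 5 were higher and 8 lower, and they include EPHA3, EPHA5, EPHA6 and SEMA6D with the limits just given. The median log2 fold change was 0.09 over the tested members and -0.01 over all genes tested, and the median absolute log2 fold change was 0.57 against 0.39.

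The share of genes called depended on abundance. Among members with a mean of at least 500 counts, 12 of 15 were called, against 63.7% of all genes in that range. Between 100 and 500 counts it was 10 of 16 members against 51.3% of genes, and under 100 counts 8 of 14 tested members against 27.4%. Those 8 include EPHA3 and EPHA5, which passed the filter only through the group in which they were higher. They also include EPHA6 and SEMA6D, whose testing rested mainly on siNC. The share under 100 counts is therefore not read as a result about the members. Of the 30 called members, 22 share no exon bases with another feature of the table. The strand setting of the authors' counting is not given in the sources used here, so reads of overlapping features may not be told apart for the other 8.

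**Figure D1:**
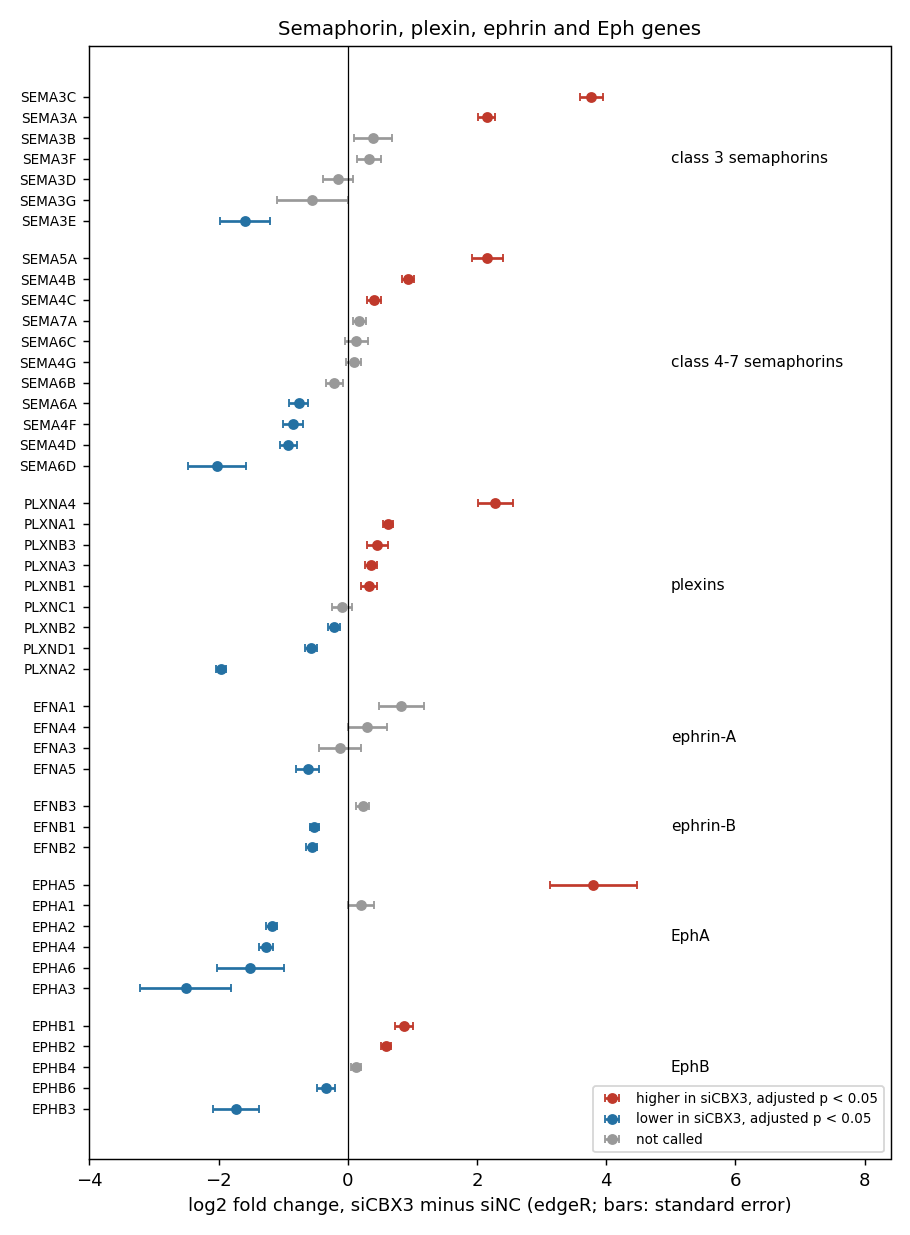
Log2 fold change (siCBX3 minus siNC, horizontal axis) of the 45 tested members, grouped by family and ordered within it; points are edgeR estimates, bars are standard errors, and colour marks the call. Members lie on both sides of 0 in each family, from EPHA3 at -2.51 to EPHA5 at 3.80.

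Among the secreted class 3 semaphorins, SEMA3C and SEMA3A rose and SEMA3E fell, while SEMA3B, SEMA3D, SEMA3F and SEMA3G were not called. Thus 42.9% of the 7 were called, a share near the 48.4% of all genes tested. SEMA3C, a ligand read through neuropilins with plexin-A or plexin-D1 receptors, is on the minus strand of chromosome 7 at 80742538 to 80922359 (GRCh38, from the count table). It had 647 and 691 counts in the siCBX3 libraries and 68 and 38 counts in the siNC libraries, or 2.83 and 2.85 RPKM in siCBX3 against 0.291 and 0.150 RPKM in siNC. The groups were far apart, although the siNC libraries differed from each other more than the siCBX3 libraries did. The log2 fold change was 3.77 (edgeR: SE 0.18, adjusted p = 2.11e-14), and SEMA3C was the most abundant class 3 semaphorin of the siCBX3 cells.

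SEMA3C has RefSeq promoter windows at a pair of transcript starts, and both are shown because this gene had the largest log2 fold change of the tested class 3 semaphorins. Each runs 5′ to 3′ on the minus strand from 250 bases before to 50 bases after the start (RefSeq, GRCh38.p14). The window at chr7:80919002-80919301 holds 46 CpG dinucleotides, and the window at chr7:80922340-80922639 holds 2.
SEMA3C, downstream start: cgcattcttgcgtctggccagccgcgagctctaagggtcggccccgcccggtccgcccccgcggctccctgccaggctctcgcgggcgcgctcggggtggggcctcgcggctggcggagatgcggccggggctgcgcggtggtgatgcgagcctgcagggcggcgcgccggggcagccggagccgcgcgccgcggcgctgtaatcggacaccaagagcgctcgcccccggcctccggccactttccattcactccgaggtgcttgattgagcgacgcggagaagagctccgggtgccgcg
SEMA3C, upstream start: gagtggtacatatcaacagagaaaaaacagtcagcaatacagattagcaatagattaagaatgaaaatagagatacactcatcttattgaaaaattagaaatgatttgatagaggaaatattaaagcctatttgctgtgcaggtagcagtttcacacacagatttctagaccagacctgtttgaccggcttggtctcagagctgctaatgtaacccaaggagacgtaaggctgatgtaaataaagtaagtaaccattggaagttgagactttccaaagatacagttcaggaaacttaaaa
The median was 20 CpG over the 70 windows of 45 members and 14 over all 35116 windows of the table, so the SEMA3C starts lie above and below both medians. Counts per gene do not say which start was used. Neither window holds any of the motifs searched on both strands, which were TGANTCA (AP-1), CATTCC (TEAD), GGGA followed by CC after any 4 bases (NF-kB), CACGTG (E-box) and TGACGTCA (cyclic AMP response element, CRE). These letters occur in 7.71%, 14%, 25.6%, 7.26% and 1.85% of all windows, in that order.

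SEMA3A, which repels axons through NRP1 and plexin-A receptors and favours bone formation in mice, is on the minus strand of chromosome 7 at 83955777 to 84492724. It had 671 and 818 counts in siCBX3 and 178 and 188 counts in siNC, or 1.96 and 2.25 RPKM against 0.509 and 0.497 RPKM. The groups did not overlap, and the log2 fold change was 2.15 (edgeR: SE 0.13, adjusted p = 6.05e-13). SEMA3E, which binds plexin-D1 without a neuropilin, had 14 and 18 counts in siCBX3 and 42 and 64 counts in siNC. Its level was low in both groups, at 0.0568 and 0.0689 RPKM in siCBX3 against 0.167 and 0.235 RPKM in siNC, with a log2 fold change of -1.59 (edgeR: SE 0.38, adjusted p = 0.00126). The other class 3 genes had log2 fold changes of 0.33 for SEMA3F, 0.39 for SEMA3B, -0.15 for SEMA3D and -0.55 for SEMA3G, and none was called.

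The composition of the secreted semaphorins therefore differed between the groups. Their summed level was 6.07 and 6.64 RPKM in siCBX3 and 2.24 and 2.12 RPKM in siNC, a log2 ratio of 1.54 that a permutation of 2 against 2 libraries cannot test below an exact two-sided p of 0.333. SEMA3C held 46.6% and 42.9% of that sum in siCBX3, against 13.0% and 7.08% in siNC. SEMA3F, the NRP2 ligand, held 11.3% and 13.9% in siCBX3 and led in siNC with 30.7% and 31.5%. SEMA3F was at 0.687 and 0.921 RPKM in siCBX3 and 0.689 and 0.668 RPKM in siNC, so its groups overlapped. Its antisense neighbour SEMA3F-AS1 shares 110 of its exon bases.

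SEMA3C, SEMA3E, SEMA3A and SEMA3D lie within 4.44 Mb of chromosome 7, from 80742538 to 85186855, all on the minus strand. Between them the table has 11 other features, of which 6 were tested. HGF, the ligand of the MET receptor, had 47 and 31 counts in siCBX3 and 12 and 8 counts in siNC, with a log2 fold change of 2.08 (edgeR: SE 0.47, adjusted p = 0.000723). CACNA2D1, a calcium channel subunit, rose by 0.62, and PCLO, a presynaptic scaffold, by 0.27 on the log2 scale. The sparse features AC010091.1 (18 and 31 counts in siCBX3, 2 and 13 in siNC) and DDX43P3 (12 and 18 counts in siCBX3, 6 and 4 in siNC) were also called higher. Thus 5 of the 6 were called higher and 0 lower, and HNRNPA1P8 was not called (log2 fold change -0.63). The siNC counts of DDX43P3 were under the filter's minimum of 10, as were the 8 of HGF and the 2 of AC010091.1. DDX43P3 passed through siCBX3 only, and the testing of HGF and AC010091.1 rested mainly on siCBX3, where they were higher. The filter thus favoured higher calls here, so the share is not comparable with the 24.4% of all genes called higher. The stretch was not uniform, since SEMA3E fell and SEMA3D was not called.

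**Figure D2:**
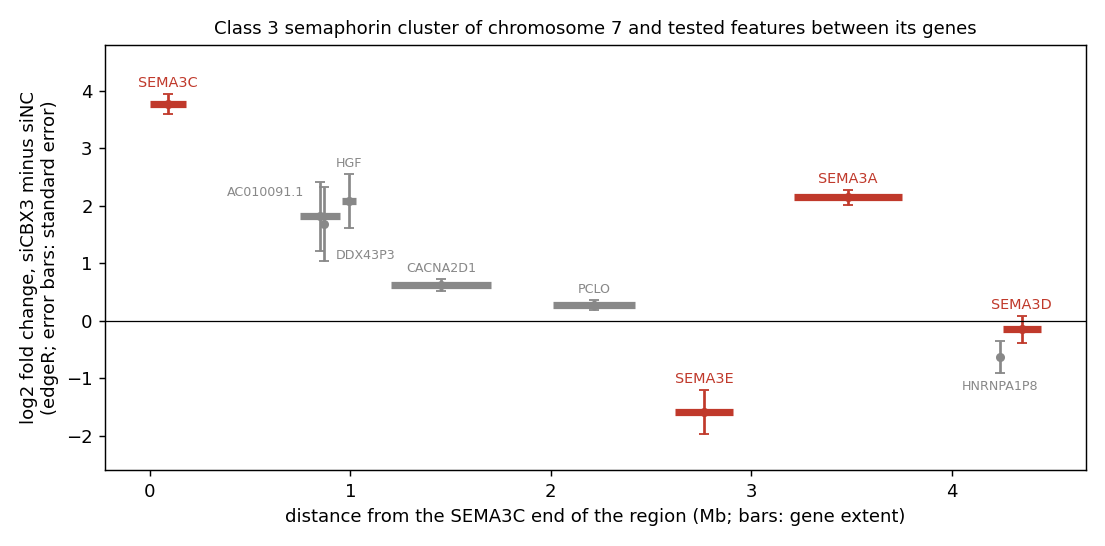
Log2 fold change (siCBX3 minus siNC, vertical axis) of the tested features between SEMA3C and SEMA3D on chromosome 7, by distance in Mb; horizontal bars span each gene, vertical bars are standard errors, red marks semaphorins and grey the other features. SEMA3C (3.77) and SEMA3A (2.15) lie above 0, SEMA3E (-1.59) below it, and SEMA3D (-0.15) within 1 standard error of it.

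SEMA3E also has a pair of RefSeq starts, and the window at chr7:83641382-83641681 holds 1 CpG and none of the motifs searched. The window at chr7:83649090-83649389 (minus strand, RefSeq, GRCh38.p14) holds 6 CpG and an E-box in capitals at 45 bases before the start (offset -45). It is shown for contrast with the downstream SEMA3C start (46 CpG), while the upstream SEMA3C start holds 2 CpG.
SEMA3E: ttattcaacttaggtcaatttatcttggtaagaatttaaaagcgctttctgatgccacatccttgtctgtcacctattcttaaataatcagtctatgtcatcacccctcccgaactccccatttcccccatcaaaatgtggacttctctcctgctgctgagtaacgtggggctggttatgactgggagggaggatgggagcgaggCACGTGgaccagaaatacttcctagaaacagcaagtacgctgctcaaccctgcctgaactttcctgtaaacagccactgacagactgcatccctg

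Among the 11 tested membrane-bound semaphorins, 3 rose and 4 fell, and the 3 that rose are a share near the 24.4% of all genes called higher. SEMA5A, a transmembrane ligand with thrombospondin repeats that binds plexin-B3, had 150 and 162 counts in siCBX3 and 29 and 47 counts in siNC. Its level was 0.340 and 0.346 RPKM in siCBX3 and 0.0642 and 0.0963 RPKM in siNC, with no overlap. The log2 fold change of SEMA5A was 2.16 (edgeR: SE 0.24, adjusted p = 5.09e-08). SEMA4B, at 4.89 and 4.61 RPKM in siCBX3 and 2.57 and 2.71 RPKM in siNC, rose by 0.93 on the log2 scale (edgeR: SE 0.09, adjusted p = 1.11e-08). SEMA4C, a plexin-B2 ligand, rose by 0.41, but was not called without siNC replicate 2 (0.25, adjusted p = 0.0532) or on RPKM values.

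The membrane semaphorins that fell were SEMA6D, SEMA4D, SEMA4F and SEMA6A, 4 of the 11 tested, where 24% of all genes were called lower. SEMA6D, a plexin-A1 ligand of heart and nervous system, had 12 and 8 counts in siCBX3 and 48 and 42 counts in siNC, or 0.0384 and 0.0241 RPKM against 0.150 and 0.122 RPKM. Its log2 fold change was -2.03 (edgeR: SE 0.45, adjusted p = 0.000518) at a level near the low end of the members. The 8 counts of SEMA6D were under the filter's minimum of 10, so its testing rested mainly on its siNC libraries, in which it was higher. SEMA4D, the plexin-B1 ligand that restrains osteoblasts in mice, was at 0.420 and 0.372 RPKM in siCBX3 and 0.785 and 0.802 RPKM in siNC. SEMA4D fell by 0.92, SEMA4F by 0.85 and SEMA6A by 0.76 on the log2 scale, with adjusted p of 3.58e-06, 4.48e-05 and 0.000169 (edgeR).

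The most abundant semaphorin of these cells was SEMA7A, a GPI-anchored protein that binds integrin beta-1 and plexin-C1. It was at 10.9 and 10.2 RPKM in siCBX3 and 10.8 and 8.79 RPKM in siNC, so the groups overlapped, and its log2 fold change of 0.18 was not called (edgeR: SE 0.10, adjusted p = 0.131). Without siNC replicate 1 it was called, at 0.36 (adjusted p = 0.000999). SEMA4G, SEMA6B and SEMA6C had log2 fold changes of 0.09, -0.21 and 0.13 and were not called, and 22.3% of the SEMA4G exon bases are shared with MRPL43 on the other strand. SEMA4A (4 and 4 counts in siCBX3, 0 and 0 in siNC) and SEMA5B (2 and 2 counts in siCBX3, 2 and 0 in siNC) were below the filter. Summed over classes 4 to 7, the level was 26.8 and 25.2 RPKM in siCBX3 and 25.1 and 22.7 RPKM in siNC, and the groups were close together.

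**Figure D3:**
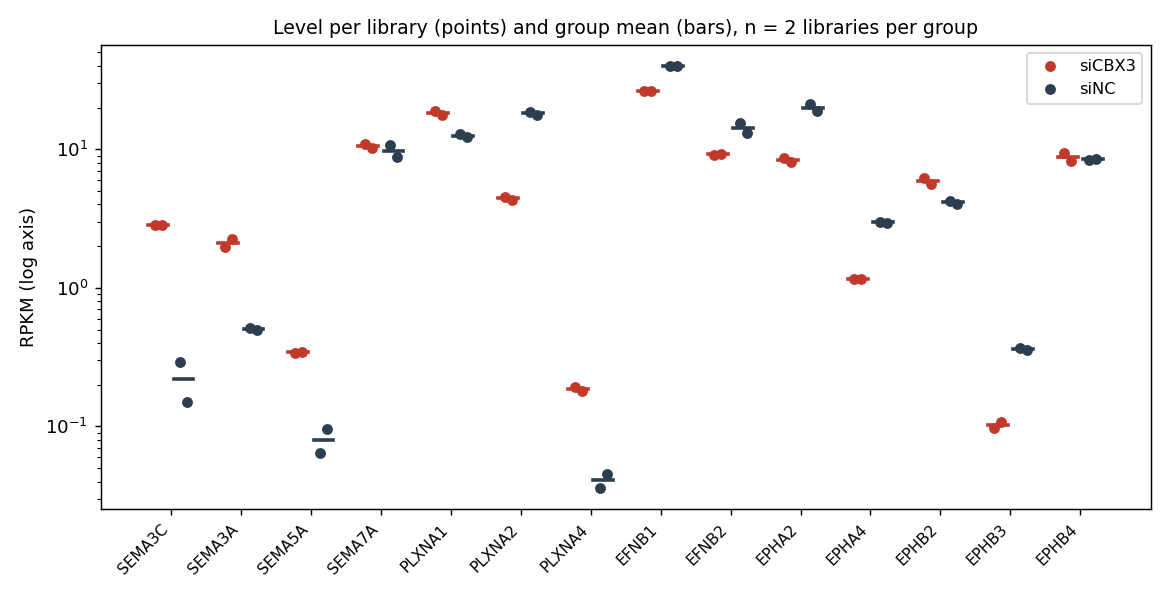
RPKM per library on a log axis for 14 members, with siCBX3 in red to the left and siNC in dark blue to the right of each gene; points are libraries and bars are group means (n = 2). The groups lie apart for SEMA3C, SEMA3A, SEMA5A, PLXNA2, PLXNA4, EPHA2, EPHA4 and EPHB3, and overlap for SEMA7A and EPHB4.

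The plexins changed leading receptor. PLXNA2, a receptor for class 3 and class 6 semaphorins, fell, and PLXNA1, its close relative with the same kinds of ligand, rose. PLXNA2 (chromosome 1, 208022242 to 208244320, minus strand) had 2274 and 2318 counts in siCBX3 and 9606 and 9881 counts in siNC, or 4.52 and 4.34 RPKM against 18.7 and 17.8 RPKM. The groups differed by far more than the libraries within them, with a log2 fold change of -1.96 (edgeR: SE 0.08, adjusted p = 3.91e-16). PLXNA1 (chromosome 3, 126988594 to 127037392, plus strand) was at 18.8 and 17.6 RPKM in siCBX3 and 12.9 and 12.2 RPKM in siNC, with a log2 fold change of 0.62 (edgeR: SE 0.08, adjusted p = 3.41e-07).

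The ratio of PLXNA1 to PLXNA2 in RPKM was 4.16 and 4.06 in siCBX3 and 0.691 and 0.685 in siNC. PLXNA1 held 48.4% and 47.4% of the summed plexin level in siCBX3, against 25.9% and 26.1% in siNC. PLXNA2 held 11.6% and 11.7% in siCBX3, against 37.5% and 38.1% in siNC. The order of the pair was thus the opposite in the siCBX3 libraries to that in the siNC libraries. The summed plexin level was 38.8 and 37.2 RPKM in siCBX3 and 49.8 and 46.6 RPKM in siNC.

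The RefSeq window of PLXNA2 (chr1:208244335-208244634, minus strand, GRCh38.p14) is shown as that of the member with the smallest adjusted p. It holds 29 CpG and none of the motifs searched.
PLXNA2: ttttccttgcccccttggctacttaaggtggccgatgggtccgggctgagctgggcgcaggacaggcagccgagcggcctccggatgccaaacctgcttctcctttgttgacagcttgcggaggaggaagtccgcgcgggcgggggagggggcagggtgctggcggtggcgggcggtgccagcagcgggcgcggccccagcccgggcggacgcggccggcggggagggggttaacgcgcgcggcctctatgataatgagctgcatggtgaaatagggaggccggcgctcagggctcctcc

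PLXNA4, a plexin best known from sensory and sympathetic neurons, was the least abundant plexin. It had 116 and 115 counts in siCBX3 and 22 and 30 counts in siNC, or 0.194 and 0.181 RPKM against 0.0360 and 0.0454 RPKM. The groups were well apart, with a log2 fold change of 2.28 (edgeR: SE 0.27, adjusted p = 1.83e-07). PLXND1, the receptor of SEMA3E, was at 2.03 and 2.29 RPKM in siCBX3 and 3.46 and 3.33 RPKM in siNC and fell by 0.57 (adjusted p = 1.89e-05, edgeR). PLXNA3, which acts with NRP2, rose by 0.36 (adjusted p = 0.00203, edgeR), though not on RPKM values.

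The plexin-B receptors had small log2 fold changes. PLXNB1, the SEMA4D receptor, had a log2 fold change of 0.33 (adjusted p = 0.0214), PLXNB3 of 0.46 (adjusted p = 0.0309) and PLXNB2 of -0.21 (adjusted p = 0.0486, all edgeR). None of these 3 calls held in every alternative: PLXNB1 was not called without siNC replicate 2 or without either siCBX3 library, PLXNB2 without siNC replicate 1 or either siCBX3 library, and PLXNB3 without siNC replicate 1 or siCBX3 replicate 1, and none of the 3 with DESeq2. PLXNB3 shares 20.4% of its exon bases with SRPK3 on the same strand. PLXNC1, the SEMA7A receptor, was not called (log2 fold change -0.09, adjusted p = 0.657, edgeR). Of the 9 plexins 5 were called higher and 3 lower, so 88.9% were called, against 48.4% of all genes tested. PLXNA1, PLXNA2, PLXNA3, PLXNB2 and PLXND1 had a mean of at least 500 counts, a range in which 63.7% of all genes were called. The called plexins include PLXNB1, PLXNB2 and PLXNB3, with the limits above.

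**Figure D4:**
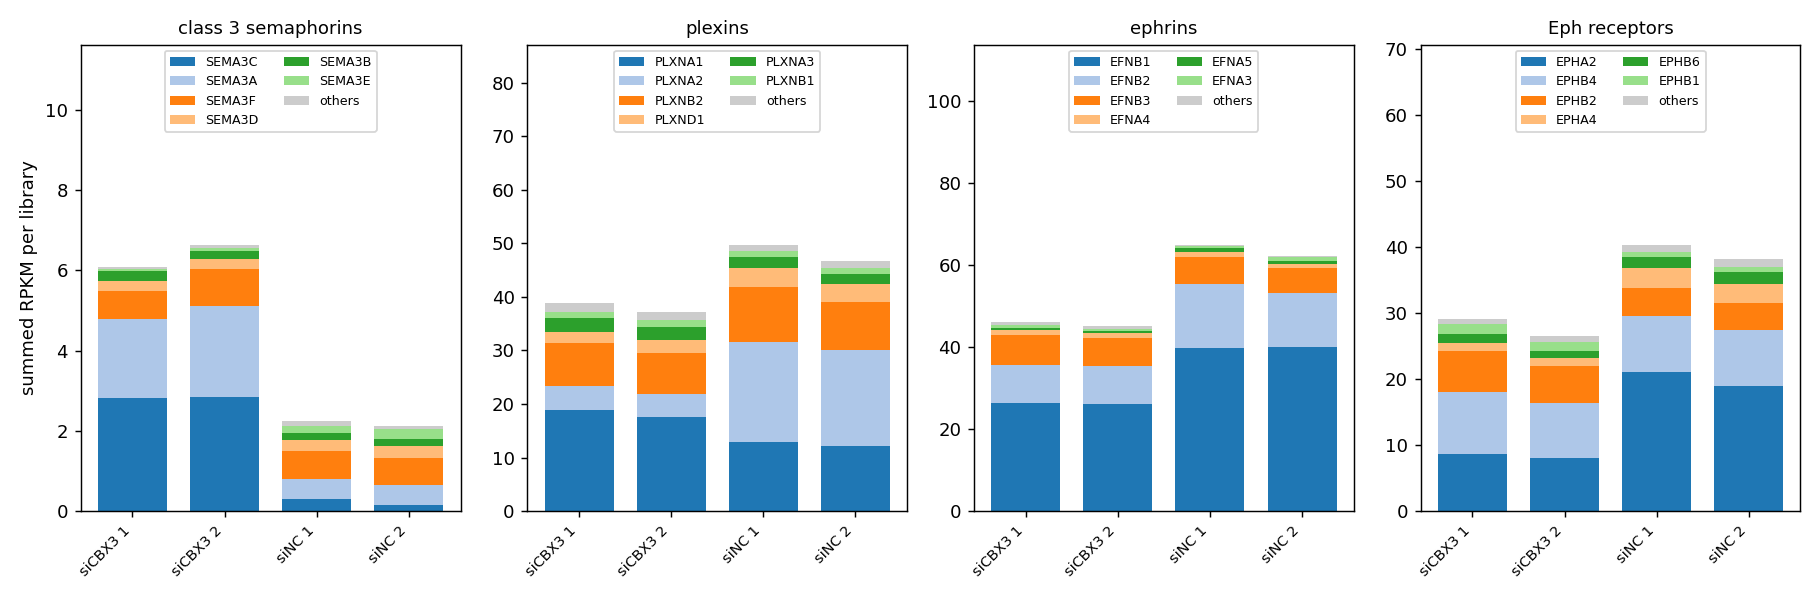
Summed RPKM per library (bars, linear axis from 0) of class 3 semaphorins, plexins, ephrins and Eph receptors, stacked by gene, with the 6 most abundant genes of each panel named and the rest in grey. SEMA3C and PLXNA1 take larger shares and PLXNA2 and EPHA2 smaller levels in the siCBX3 libraries than in the siNC libraries.

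Both neuropilins, the binding partners of class 3 semaphorins, rose. Of 9 tested semaphorin co-receptors, 6 rose and 1 fell, against 24.4% of all genes called higher and 24% lower, with a median log2 fold change of 0.55 (0.20 with no filter on low counts and 0.18 on log2 RPKM plus 1). NRP2, the neuropilin of SEMA3F and SEMA3C, was at 28.8 and 27.0 RPKM in siCBX3 and 12.5 and 11.9 RPKM in siNC (log2 fold change 1.28, adjusted p = 9.69e-13, edgeR). NRP1, the neuropilin of SEMA3A, was at 24.8 and 25.5 RPKM in siCBX3 and 16.8 and 15.4 RPKM in siNC (log2 fold change 0.72, adjusted p = 2.59e-08, edgeR). ITGB1, the integrin chain bound by SEMA7A, rose by 0.55, and the MET kinase, a partner of plexin-B1, fell by 0.56.

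Of 27 tested plexin and neuropilin signalling partners, 11 rose, 4 fell and 12 were not called, so 55.6% were called against 48.4% of all genes tested. The median log2 fold change was 0.13 (0.23 without siNC replicate 1 and 0.29 without siCBX3 replicate 2). RND3, a GTPase of the Rnd family whose members bind plexins, rose by 1.31, and RRAS, the R-Ras substrate of the plexin GAP domain, by 1.39. The actin oxidases MICAL1 and MICAL2 rose by 1.06 and 0.92, with adjusted p between 3.39e-12 and 5.21e-10 for these 4 genes (edgeR). Both lists were written from known roles, with earlier results of these data known.

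The ephrins were dominated by the ephrin-B ligands, and the 2 most abundant fell. EFNB1 (chromosome X, 68828997 to 68842147, plus strand), a ligand of EphB receptors that is mutated in craniofrontonasal syndrome, had 3192 and 3364 counts in siCBX3 and 4911 and 5360 counts in siNC. It was at 26.4 and 26.2 RPKM in siCBX3 and 39.7 and 40.1 RPKM in siNC, the highest level of any member. Its log2 fold change was -0.52 (edgeR: SE 0.07, adjusted p = 2.49e-06), and the groups did not overlap. EFNB2, the ligand of EPHB4, was at 9.12 and 9.26 RPKM in siCBX3 and 15.6 and 13.1 RPKM in siNC (edgeR: log2 fold change -0.56, SE 0.09, adjusted p = 1.5e-05).

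The ratio of EFNB1 to EFNB2 was 2.89 and 2.83 in siCBX3 and 2.55 and 3.06 in siNC, so this ratio overlapped between the groups. EFNB3, at 7.42 and 6.72 RPKM in siCBX3 and 6.66 and 6.06 RPKM in siNC, had a log2 fold change of 0.23 that was not called (adjusted p = 0.0632, edgeR). It was called without siNC replicate 1 (0.32, adjusted p = 0.0162) and without siCBX3 replicate 2 (0.31, adjusted p = 0.0467). The summed ephrin-B level was 42.9 and 42.2 RPKM in siCBX3 and 61.9 and 59.3 RPKM in siNC.

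The ephrin-A ligands were far less abundant, at a summed 3.17 and 2.81 RPKM in siCBX3 and 2.99 and 2.99 RPKM in siNC. The ephrin-A gene with the highest mean, EFNA4, was at 1.13 and 1.19 RPKM in siCBX3 and 1.17 and 0.824 RPKM in siNC, and its log2 fold change of 0.30 was not called (edgeR: SE 0.30, adjusted p = 0.429). EFNA5 fell by 0.62 (adjusted p = 0.00706, edgeR), with a level of 0.548 and 0.494 RPKM in siCBX3 against 0.897 and 0.791 RPKM in siNC. The call of EFNA5 was lost with siNC replicate 1 left out (adjusted p = 0.0605) and with siCBX3 replicate 2 left out (adjusted p = 0.0506). EFNA1, a high-affinity ligand of EPHA2, was at 0.432 and 0.549 RPKM in siCBX3 and 0.348 and 0.234 RPKM in siNC. Its log2 fold change of 0.83 was just outside the threshold (edgeR: SE 0.35, adjusted p = 0.052) and was called without siNC replicate 1 (1.16, adjusted p = 0.0288).

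EFNA4, EFNA3 and EFNA1 are neighbours within 71.1 kb of chromosome 1, from 155063731 to 155134857 on the plus strand. The feature RP11-540D14.8 shares 44.7% of the exon bases of EFNA3 and 15% of those of EFNA4, so their counts are uncertain. EFNA3 was at 0.775 and 0.474 RPKM in siCBX3 and 0.491 and 0.935 RPKM in siNC and was not called (log2 fold change -0.12, adjusted p = 0.794, edgeR). Its libraries overlapped fully, and the sign of its fold change turned without siNC replicate 2 (0.40) or siCBX3 replicate 2 (0.21). EFNA2 had 10 and 4 counts in siCBX3 and 3 and 8 counts in siNC and was below the filter.

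Among the 6 tested EphA receptors, EPHA2, EPHA4, EPHA6 and EPHA3 were called lower and EPHA5 higher, where 24% of all genes were called lower and 24.4% higher. EPHA3 and EPHA5 passed the filter only through the group in which they were higher, and of the other 4 EphA receptors 3 were called lower and 0 higher. These 3 include EPHA6, which had a siCBX3 library under the filter's minimum of 10 counts, while EPHA2 and EPHA4 were well above it in every library. EPHA2 (chromosome 1, 16124337 to 16156087, minus strand), a receptor studied as a tumour surface target, had 1323 and 1302 counts in siCBX3 and 3273 and 3179 counts in siNC. It was at 8.71 and 8.09 RPKM in siCBX3 and 21.1 and 18.9 RPKM in siNC, and the groups were well separated. The log2 fold change of EPHA2 was -1.18 (edgeR: SE 0.09, adjusted p = 5.8e-11). EPHA4, which binds both classes of ephrin, was at 1.16 and 1.16 RPKM in siCBX3 and 3.0 and 2.93 RPKM in siNC. Its log2 fold change was -1.27 (edgeR: SE 0.11, adjusted p = 6.87e-10). The ratio of EPHA4 to EPHA2 was 0.133 and 0.144 in siCBX3 and 0.142 and 0.154 in siNC and overlapped between the groups.

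The EPHA2 window (chr1:16156020-16156319, minus strand, RefSeq, GRCh38.p14) is shown because EPHA2 leads its family and its window holds 2 of the motifs searched. In capitals are CATTCC (TEAD) at offset -73 and TGACGTCA (CRE) at offset -51 from the start.
EPHA2: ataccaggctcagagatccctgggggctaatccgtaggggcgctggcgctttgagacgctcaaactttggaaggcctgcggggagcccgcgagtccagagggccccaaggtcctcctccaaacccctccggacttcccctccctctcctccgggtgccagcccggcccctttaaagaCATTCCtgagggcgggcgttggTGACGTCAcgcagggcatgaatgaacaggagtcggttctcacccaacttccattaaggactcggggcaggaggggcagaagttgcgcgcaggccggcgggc
The CRE letters were found in 3 of 70 member windows (EPHA2, SEMA3B and SEMA4C), and these members were called lower, not called and called higher in that order. The TEAD letters were found in 8 member windows, the NF-kB letters in 21, the E-box in 4 and the AP-1 letters in 1. A match is a description of the letters and not a measured binding site. EFNB3, EPHA10, SEMA3A, SEMA6A and SEMA6B had no window in the table.

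Of the remaining EphA receptors, EPHA1 had 107 and 115 counts in siCBX3 and 100 and 111 counts in siNC and was not called (log2 fold change 0.20), and the others were sparse. EPHA3, which binds ephrin-A5, had 2 and 4 counts in siCBX3 and 24 and 14 counts in siNC and passed the filter only through its siNC libraries, with a log2 fold change of -2.51 (edgeR: SE 0.71, adjusted p = 0.00482), a difference that its passing already required. EPHA6, a receptor best known from brain, had 6 and 11 counts in siCBX3 and 30 and 23 counts in siNC. Its log2 fold change was -1.51 (edgeR: SE 0.52, adjusted p = 0.0192). The 6 counts of EPHA6 were under the filter's minimum of 10, so its testing rested mainly on its siNC libraries, in which it was higher. Neither the EPHA3 call nor the EPHA6 call held in every alternative. Without siNC replicate 1 the adjusted p was 0.141 for EPHA3 and 0.209 for EPHA6, and without siCBX3 replicate 1 it was 0.0688 and 0.159, which left 2 EphA receptors called lower in each case.

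EPHA5, a neuronal receptor of ephrin-A ligands, went the other way. It had 26 and 28 counts in siCBX3 and 2 and 2 counts in siNC, so it passed the filter only through its siCBX3 libraries. Its log2 fold change was 3.80 (edgeR: SE 0.67, adjusted p = 4.84e-05), and it was not called on log2(RPKM + 1). A member that passes through 1 group only has to differ between the groups, so this p supports nothing further. The ratio of its summed counts per TMM-scaled library total, siCBX3 over siNC, was 14.7, with a 95% exact interval of 5.43 to 56 that covers counting error only. If the counts are of both mates of a pair, the interval is 3.7 to 128. Both intervals rest on the same selected counts, so they support nothing further either. EPHA5-AS1 shares 5.44% of its exon bases and had 6 and 11 counts in siCBX3 and 0 and 2 counts in siNC. EPHA8 (2 and 0 counts in siCBX3, 2 and 0 in siNC) and EPHA10 (0 and 0 counts in siCBX3, 2 and 6 in siNC) were below the filter.

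Among the EphB receptors, EPHB1 and EPHB2 rose and EPHB3 and EPHB6 fell, while EPHB4 was not called. Thus 80% of the 5 were called, against 48.4% of all genes tested. EPHB4, the receptor of ephrin-B2 on veins and osteoblasts, was the most abundant, at 9.37 and 8.28 RPKM in siCBX3 and 8.41 and 8.57 RPKM in siNC. Its groups overlapped, with a log2 fold change of 0.13 (edgeR: SE 0.08, adjusted p = 0.195). EPHB2, a receptor of all ephrin-B ligands, was at 6.18 and 5.60 RPKM in siCBX3 and 4.24 and 4.03 RPKM in siNC (edgeR: log2 fold change 0.59, SE 0.08, adjusted p = 2.47e-06). MIR4253, which lies on the other strand, shares 34 of its exon bases.

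EPHB1 was at 1.38 and 1.26 RPKM in siCBX3 and 0.755 and 0.766 RPKM in siNC, and its log2 fold change was 0.87 (edgeR: SE 0.14, adjusted p = 1.38e-05). EPHB3 had 16 and 19 counts in siCBX3 and 62 and 65 counts in siNC, or 0.0967 and 0.108 RPKM against 0.367 and 0.356 RPKM. It was the least abundant EphB receptor and had a log2 fold change of -1.73 (edgeR: SE 0.35, adjusted p = 0.000198). EPHB6, whose kinase domain is inactive, had a log2 fold change of -0.34 at the edge of the threshold (adjusted p = 0.0495, edgeR). It was not called without siNC replicate 2 (-0.29, adjusted p = 0.148), without siCBX3 replicate 2 (-0.18, adjusted p = 0.434) or with DESeq2.

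Summed over the receptors, EphA was lower in siCBX3 and EphB slightly higher. The summed EphA level was 10.6 and 10.0 RPKM in siCBX3 and 24.9 and 22.6 RPKM in siNC, a log2 ratio of -1.20. The summed EphB level was 18.5 and 16.4 RPKM in siCBX3 and 15.4 and 15.6 RPKM in siNC, a log2 ratio of 0.17 that was 0.08 without siCBX3 replicate 1. EPHA2 and EPHB4 were about level in siCBX3, with an EPHB4 to EPHA2 ratio of 1.08 and 1.02, against 0.399 and 0.452 in siNC. With 2 libraries a group, the exact permutation test of such sums and ratios has no two-sided p below 0.333, so they are descriptions.

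Of 30 tested Eph and ephrin signalling partners, 15 rose and 4 fell, with a median log2 fold change of 0.24 (0.11 on log2 RPKM plus 1). Thus 63.3% were called, against 48.4% of all genes tested. INPPL1, the SHIP2 lipid phosphatase that binds EphA2, rose by 1.00, and ABL1, a kinase that binds Eph receptors, by 0.82. ANKS1B, of a family of adaptors with members that bind Eph receptors, rose by 1.53, and ADAM10, the protease that sheds ephrins and Eph receptors, fell by 0.85. These 4 genes had the smallest adjusted p of the list, between 3.2e-10 and 1.87e-08 (edgeR).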

How the data were processed

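Stranded mRNA libraries of 143B cells were prepared from total RNA at day 2 after siRNA transfection, 2 per group. The submitters' processing notes name build GRCh38, Subread 1.5.1 (featureCounts), STAR 2.5.3a and Trimmomatic 0.36. Settings for strand, shared reads and read pairs and the annotation release are not given in the sources used here. Raw counts per gene and RPKM values for 37450 features were deposited by the authors. The deposited RPKM could be recomputed from counts, gene lengths and library totals within a relative difference of 3.8e-07. Counts of 1 to 4 were even in 79.1% to 80.2% of cases, against 49.9% to 52.3% of counts over 1000, so the authors' counts may hold both mates of a pair, and a fit to halved counts was added after the data had been seen.

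Counts were fitted in R 4.3.3 with edgeR 4.0.16 (filterByExpr with minimum 10 and total 15, TMM factors 0.966 to 1.05, quasi-likelihood test, 2 residual and 22.0 prior degrees of freedom), with Benjamini-Hochberg adjustment over 20999 genes and calls at an adjusted p under 0.05. SE is the absolute log2 fold change over the root of F. The 2 libraries within a group differed beyond sampling noise, with a chi-square per degree of freedom of 7.58 in siCBX3 and 13.1 in siNC. Alternatives used limma 3.58.1 on log2 RPKM plus 1 or 0.1, DESeq2 1.42.0, other scalings and filters, a replicate block, and each library left out. The steps were tested on simulated data. Levels between genes are compared in RPKM only. Whether molecular identifiers were used to count is not stated, so counts may not be independent molecules, and intervals cover counting error only. The promoter windows are of RefSeq, GRCh38.p14, matched by symbol, and were scanned with Python 3.11.15. The members and gene lists were chosen with earlier results of these data known. Full values are given for called members whose log2 fold change was 1 or more in size and for the most abundant member of each family, and for up to 4 called genes per partner list. Other members chosen for fuller values were picked after their values had been seen.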

Additional observations from a re-analysis of the deposited data

How the results depend on the processing

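Over 14 alternatives, 20 of the 30 called members kept their call wherever they were fitted, and none of the 30 turned sign. EFNA5, EPHA3, EPHA5, EPHA6, EPHB6, PLXNA3, PLXNB1, PLXNB2, PLXNB3 and SEMA4C lost the call in at least 1. EFNA1, EFNB3 and SEMA7A were called in at least 1. With a library left out, the log2 fold change ran from -0.53 to 0.40 for EFNA3 (0.21 without siCBX3 replicate 2) and from -0.24 to 0.08 for PLXNC1, so the sign turned for both. Members called higher and lower were 11 and 14 with DESeq2, and with a library left out 11 to 15 were higher and 13 to 16 lower. Members called higher were 8 on log2 RPKM plus 1, and 8 of 30 tested among features that share no exon bases, where fewer genes are tested and the median over members was -0.25. CBX3 kept its call in the 13 alternatives in which it was fitted. Without the members that passed the filter through 1 group only (EPHA3 and EPHA5, left out after the data had been seen), 12 members were higher and 16 lower. EphA receptors then numbered 0 higher and 3 lower. Those called lower still included EPHA6 and SEMA6D, each with 1 siCBX3 library under the filter's minimum of 10 counts.

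The numbers of the replicates were a weak guide to pairing, since same-numbered libraries correlated at 0.054 in their deviations. A replicate block gave 15 members higher and 17 lower, with all 30 main calls kept, and 1 ephrin-A and 1 ephrin-B ligand called higher (0 and 0 without it).

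By family, EphA receptors called lower were 2 with a mean of at least 50 counts, on log2 RPKM plus 1 and on log2 RPKM plus 0.1, and 2 to 4 with a library left out. EphA receptors called higher were 0 under the count minimum and on log2 RPKM plus 1. EphB receptors called lower were 1 with DESeq2, with no filter, with the count minimum and on both RPKM scales, and 1 to 2 with a library left out. Class 3 semaphorins called lower were 0 with the count minimum. Ephrin-A ligands called higher were 1 with no filter and with halved counts, and 0 to 1 with a library left out, as for ephrin-B ligands, and ephrin-A ligands called lower 0 to 1. Plexins called higher were 3 with library totals and with DESeq2, 2 on both RPKM scales, and 3 to 5 with a library left out. With the count minimum, EPHA3, EPHA5, EPHA6, EPHB3 and SEMA3E were not fitted. The lower numbers under it are thus of members left out and not of calls lost. The cause of the other moves was not tested.

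Log2 ratios of summed levels in TMM-scaled CPM were -1.12 (EphA), 0.34 (EphB), 1.71 (class 3), -0.16 (ephrin-A) and -0.44 (ephrin-B). In rescaled RPKM they were 1.62 (class 3), -0.43 (ephrin-B) and -0.26 (plexins). With a library left out they ran from 0.08 to 0.25 (EphB) and from -0.09 to 0.08 (ephrin-A). Depth limits the called members EPHA3, EPHA5, EPHA6, EPHB3, SEMA6D and SEMA3E, all under 70 counts per library, and the 5 members below the filter. The uncalled members SEMA3B, SEMA3G, EFNA1 and EFNA4 were also under 70 counts in every library.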

Other observations

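The netrin, slit and RGM families, the remaining classical guidance genes, also changed in these cells. Of 20 tested, 9 rose and 4 fell in siCBX3, with a median log2 fold change of 0.28 (0.05 on log2 RPKM plus 1 and 0.13 on log2 RPKM plus 0.1) against -0.01 over all genes tested, of which 48.4% were called. ROBO4, a roundabout receptor best known from endothelium, was at 2.82 and 2.75 RPKM in siCBX3 and 0.556 and 0.740 RPKM in siNC (log2 fold change 2.18, adjusted p = 1.02e-12, edgeR). Summed endothelial markers, 2 of 4 detected, were at 0.212 and 0.195 RPKM in siCBX3 and 0.285 and 0.247 RPKM in siNC. Their bearing on ROBO4 was not tested. DRAXIN, a secreted netrin antagonist, was at 6.04 and 5.61 RPKM in siCBX3 and 2.35 and 1.91 RPKM in siNC (log2 fold change 1.53, adjusted p = 1.15e-11, edgeR).

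NTN4, a netrin that binds laminin, rose by 1.82, and NTNG2, a membrane-anchored netrin-G, by 1.53 on the log2 scale. Among the genes of the list that fell were the netrin receptors UNC5A (0.290 RPKM mean in siCBX3 and 1.00 in siNC) and UNC5B (0.269 and 0.552) and the ligand SLIT2 (0.264 and 0.479), which were named after their values had been seen. The netrin NTN1 was not called (log2 fold change 0.07, adjusted p = 0.56, edgeR).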
